A study of Danio rerio with 7 samples.

Results

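The circadian clock genes per1b (ENSDARG00000012499), per2 (ENSDARG00000034503), per3 (ENSDARG00000010519) and nr1d1 (ENSDARG00000033160) were followed in whole zebrafish larvae held at low oxygen. They were chosen by gene identifier, and are 4 of the 25049 genes in the count table. All 4 passed the filter on low counts, which kept 23716 genes. The larvae were wild type, and both groups were exposed from 81 to 96 hpf (hours post-fertilization), to 20.9% O2 (normoxia) or to 6% O2 (hypoxia). RNA-seq of poly(A) RNA was made from 4 normoxia and 3 hypoxia pools of 30 larvae. All pools ended at the same hour of development, so that a single developmental time point was sampled. The hour of day at which each pool was collected is not given in the sources used here. The light-dark schedule of either group is not given in the sources used here.

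The vertebrate clock is a loop of transcription factors. Clock and Bmal proteins pair, bind E-box elements and switch on the period (per), cryptochrome (cry) and Rev-erb (nr1d) genes. Per and Cry proteins then return to the nucleus and inhibit Clock-Bmal, while Rev-erb receptors repress bmal transcription and ROR receptors oppose them. In zebrafish most tissues keep a clock that light can set directly, and per2 is known there as a light-inducible member, whereas per1b and per3 are known for strong daily rhythms. Clock and Bmal belong to the bHLH-PAS family, as do the alpha and beta subunits of the hypoxia-inducible factors (HIFs).

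The counts per library summed to 67083058 to 78235938. The hypoxia label was checked with egln3, which encodes a HIF prolyl hydroxylase and is a HIF target. Its level was 2.61 to 3.19 CPM in normoxia and 48.7 to 50.1 CPM in hypoxia. CPM denotes a gene's counts scaled to a common library size, with TMM factors applied to the library sizes. All 5 genes of a hypoxia check list that were matched were up-regulated by the thresholds given below, where 3.07% of all tested genes were. This list was chosen with earlier results of these data known, so it is not an independent check. Brain neuron and liver transcripts, as a check of the whole-body label, were present in every library. A gene was called a differentially expressed gene (DEG) when edgeR's quasi-likelihood test gave an adjusted p under 0.05 and the log2 fold change was beyond 0.6 in either direction.

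In the hypoxia group per1b and per2 were higher past both thresholds, per3 was higher by a smaller amount, and nr1d1 had no call. The light schedule is not given. The study's methods describe a workstation for hypoxia with CO2 held constant, and do not say whether normoxia larvae were kept in it. Low oxygen and any difference in light, CO2 or chamber between the groups therefore cannot be told apart. By both thresholds 2 of the 4 genes were up-regulated DEGs, where 3.07% of all tested genes were, and none was a down-regulated DEG (7.45% of tested genes). By the adjusted p alone 3 of the 4 were higher in hypoxia, against 24.6% of tested genes. Every hypoxia library lay above every normoxia library in the same 3 genes, against 26.3% of tested genes, and in none of the 4 did every hypoxia library lie below, against 26.5%. The plot of levels by library shows the 4 genes side by side.

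**Figure D1:**
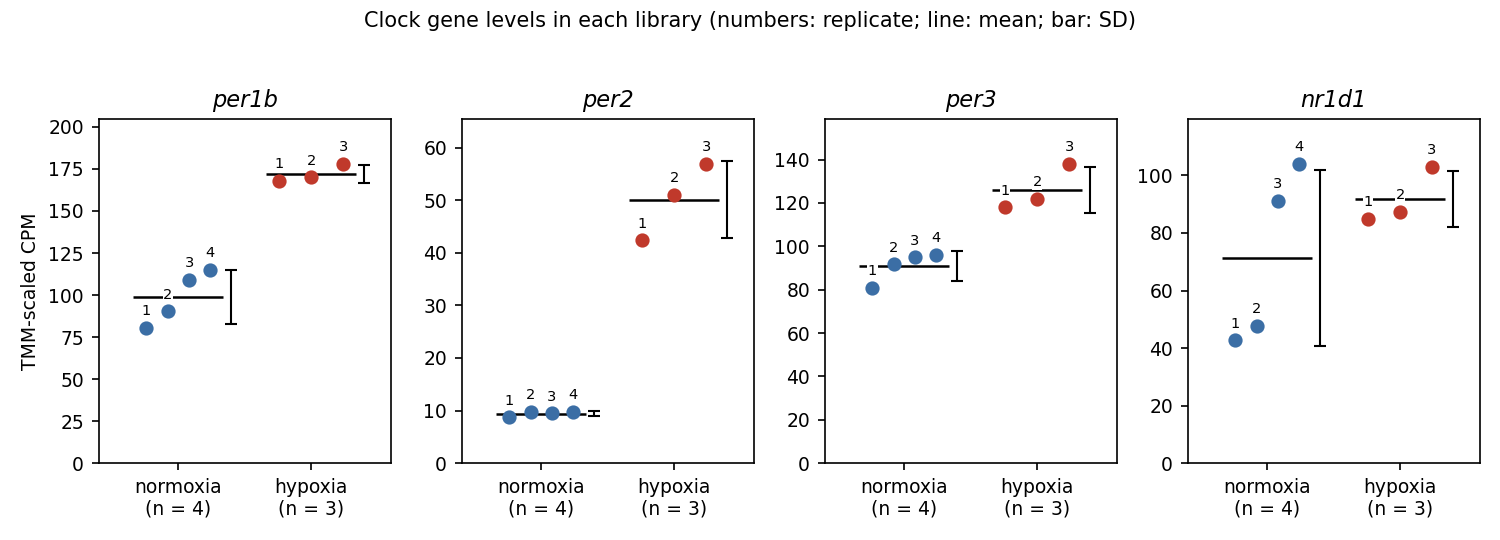
TMM-scaled CPM (y axis) of per1b, per2, per3 and nr1d1 in the 4 normoxia (blue) and 3 hypoxia (red) libraries. Points are libraries with their replicate number, lines are group means and bars are SDs. The groups are apart in the 3 per genes, while nr1d1 runs from 42.7 to 104 CPM within normoxia alone and spans the hypoxia values.

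The per2 gene encodes a Period repressor. Its level was 8.71, 9.82, 9.45 and 9.78 CPM in normoxia replicates 1 to 4, from 633 to 785 counts. In hypoxia replicates 1 to 3 it was 42.4, 51.0 and 56.9 CPM, from 2856 to 3820 counts. The lowest hypoxia library was thus far above the highest normoxia library. Group means were 9.44 ± 0.514 (normoxia, SD, n = 4) and 50.1 ± 7.30 CPM (hypoxia, n = 3). On the log2 scale the fitted rise was 2.41 (SE 0.09, BH-adjusted p = 1.1e-07, edgeR's quasi-likelihood test), or 5.30-fold with a 95% interval of 4.62 to 6.09. By log2 fold change per2 took place 11 among the 23716 tested genes. Dropping any single library gave log2 fold changes from 2.30 to 2.52. The spread moved in the other direction from that of nr1d1. The coefficient of variation of per2 was 5.44% between normoxia libraries and 14.6% between hypoxia libraries.

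The per1b gene encodes a Period protein of the Per1 type. It was at 80.5, 90.3, 109 and 115 CPM in normoxia and at 168, 170 and 178 CPM in hypoxia. The hypoxia libraries lay close together, with a coefficient of variation of 3.14%, and the normoxia libraries were spread more widely, at 16.3%. Group means were 98.7 ± 16.1 (normoxia, SD, n = 4) and 172 ± 5.40 CPM (hypoxia, n = 3). The fitted log2 rise was 0.80 (SE 0.10, BH-adjusted p = 0.00017, edgeR), or 1.74-fold with a 95% interval of 1.49 to 2.04. An increase above 0 was called, whereas an increase beyond a log2 fold change of 0.6 was not when that size was placed inside the test (glmTreat, adjusted p = 0.31). The reads were aligned to GRCz11. In the RefSeq annotation of a different assembly, GRCz12tu, dthd1 overlaps per1b. In these libraries dthd1 (ENSDARG00000086452) had 18 to 56 counts, against 5849 to 11951 of per1b. No gene in that annotation overlaps per2, per3 or nr1d1.

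The per3 gene encodes a further Period protein. Its level was 81.0, 91.8, 94.9 and 96.1 CPM in normoxia and 118, 122 and 138 CPM in hypoxia. The groups did not overlap, but the gap between them was small beside that of per2. Group means were 91.0 ± 6.87 (normoxia, SD, n = 4) and 126 ± 10.6 CPM (hypoxia, n = 3). The log2 rise of 0.47 (SE 0.07, BH-adjusted p = 0.00035, edgeR) is 1.39-fold with a 95% interval of 1.25 to 1.54. This passed the adjusted p and not the fold-change threshold. Hypoxia replicate 3 was the highest library in per1b, per2 and per3.

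The nr1d1 gene encodes Rev-erb alpha, a nuclear receptor that represses transcription and is itself a Clock-Bmal target. It was at 42.7 and 47.8 CPM in normoxia replicates 1 and 2, and at 91.2 and 104 CPM in normoxia replicates 3 and 4. In hypoxia it was at 85.0, 87.4 and 103 CPM. All 3 hypoxia libraries were above normoxia replicates 1 and 2, and all 3 were below normoxia replicate 4. Group means were 71.3 ± 30.6 (normoxia, SD, n = 4) and 91.7 ± 9.72 CPM (hypoxia, n = 3). The fitted log2 difference was 0.36 (SE 0.26, BH-adjusted p = 0.28, edgeR) with a 95% interval of -0.22 to 0.94, so that neither no change nor a rise like that of per1b lay outside the interval. Dropping any single library gave 0.18 (without normoxia replicate 1) to 0.60 (without normoxia replicate 4), with adjusted p from 0.061 to 0.53 (edgeR).

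The spread of nr1d1 within normoxia was wide in comparison with other genes. The SD of log2 CPM between normoxia libraries was 0.65, against a median of 0.10 over all tested genes, and 98.5% of tested genes had a smaller one. In hypoxia it was 0.15, and 66.1% of tested genes had a smaller one. For per1b the SD was 0.24 in normoxia (83.8% of genes smaller) and 0.04 in hypoxia (15.5%). For per3 it was 0.11 and 0.12, and for per2 0.08 and 0.21. The highest normoxia library of nr1d1 was 2.43-fold above the lowest, against 1.43-fold in per1b, 1.19-fold in per3 and 1.13-fold in per2. No label gives a batch, so within-batch values could not be computed.

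For a single gene, an exact permutation test of the difference in mean log2 CPM over the 35 divisions of the libraries into 4 and 3 gave p = 0.029 (two-sided) for each of per1b, per2 and per3. That is the smallest p these group sizes allow. Groups must be fully apart to reach it, and 26.3% of tested genes had every hypoxia library above every normoxia library. For nr1d1 the same exact permutation test gave p = 0.40.

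Whether the 4 genes differed in their response was tested on the ratio of their counts within each library, which does not depend on scaling. Gene length enters such a ratio, so only its change between groups is read. The per2/per3 log2 ratio was -3.27 ± 0.05 in normoxia and -1.34 ± 0.12 in hypoxia (SD, n = 4 and 3), a 3.81-fold shift towards per2. The per2/nr1d1 ratio shifted by 1.94 on the log2 scale, and the per1b/per2 ratio by -1.58. In these 3 pairs the groups did not overlap and the exact permutation p was 0.029, which became 0.057 after adjustment over the 6 pairs compared. The per1b/per3 ratio shifted by 0.34, from 0.11 ± 0.14 to 0.45 ± 0.07 (exact permutation p = 0.057, adjusted p = 0.086). Thus no pair passed an adjusted p of 0.05 in this test, although the groups were apart in 4 pairs. The smallest p these group sizes allow is 0.029, so a single pair could not pass after adjustment over 6 pairs, whatever its shift. The adjusted p therefore cannot decide whether a single pair differed. The per3/nr1d1 ratio was 0.45 ± 0.56 in normoxia and 0.46 ± 0.03 in hypoxia (exact permutation p = 1). Its hypoxia libraries, at 0.43 to 0.48, lay between normoxia replicates 1 and 2, at 0.92 and 0.94, and normoxia replicates 3 and 4, at 0.06 and -0.11.

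**Figure D2:**
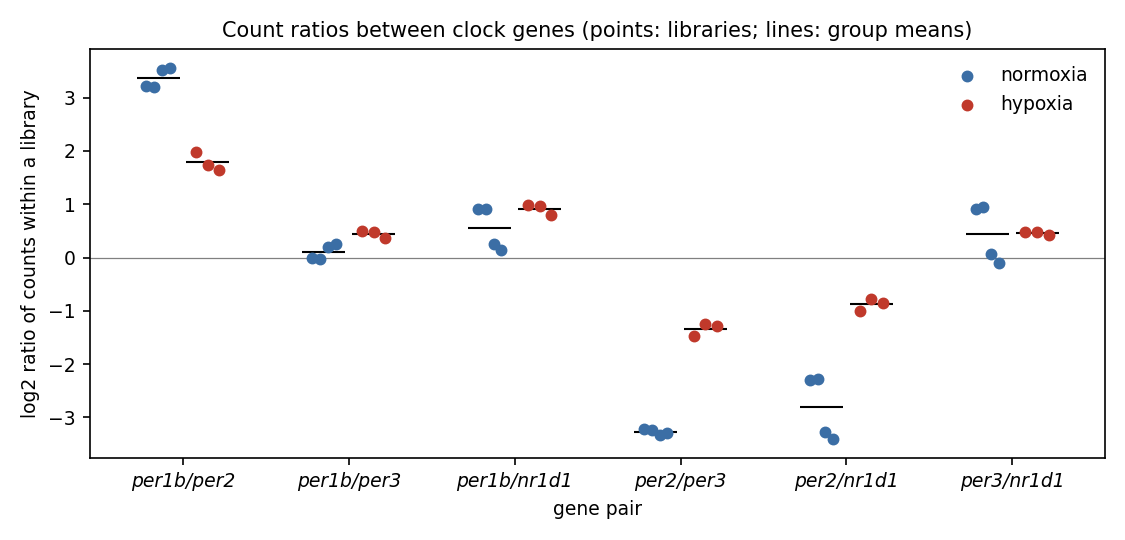
Log2 ratio of the counts of each gene pair within a library (y axis) for the 6 pairs of the clock genes (x axis), with normoxia libraries in blue, hypoxia libraries in red and group means as lines. The 3 pairs that hold per2 are the ones with the widest gap between groups. In pairs with nr1d1 the normoxia libraries lie in a lower and an upper position, as in per3/nr1d1 at -0.11 and 0.06 against 0.92 and 0.94.

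The other genes of the clock were then described from a list by role. Of 53 listed genes 48 were matched to an identifier and tested. Here 20 were up-regulated DEGs, where 3.07% of all tested genes were, and 0 were down-regulated DEGs (7.45% of tested genes). By the adjusted p alone 33 were higher and 1 was lower in hypoxia, where 24.6% of all tested genes were higher and 25.1% were lower, and 14 did not pass. Their median log2 fold change was 0.46, against -0.00438 over all tested genes. Leaving out per1b, per2, per3 and nr1d1, 18 of 44 were up-regulated DEGs, with a median log2 fold change of 0.40. The groups did not overlap in 34 of the 48 genes with hypoxia higher, against 26.3% of tested genes, and in 1 with hypoxia lower, against 26.5%. The plot of log2 fold changes by role shows all 48.

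**Figure D3:**
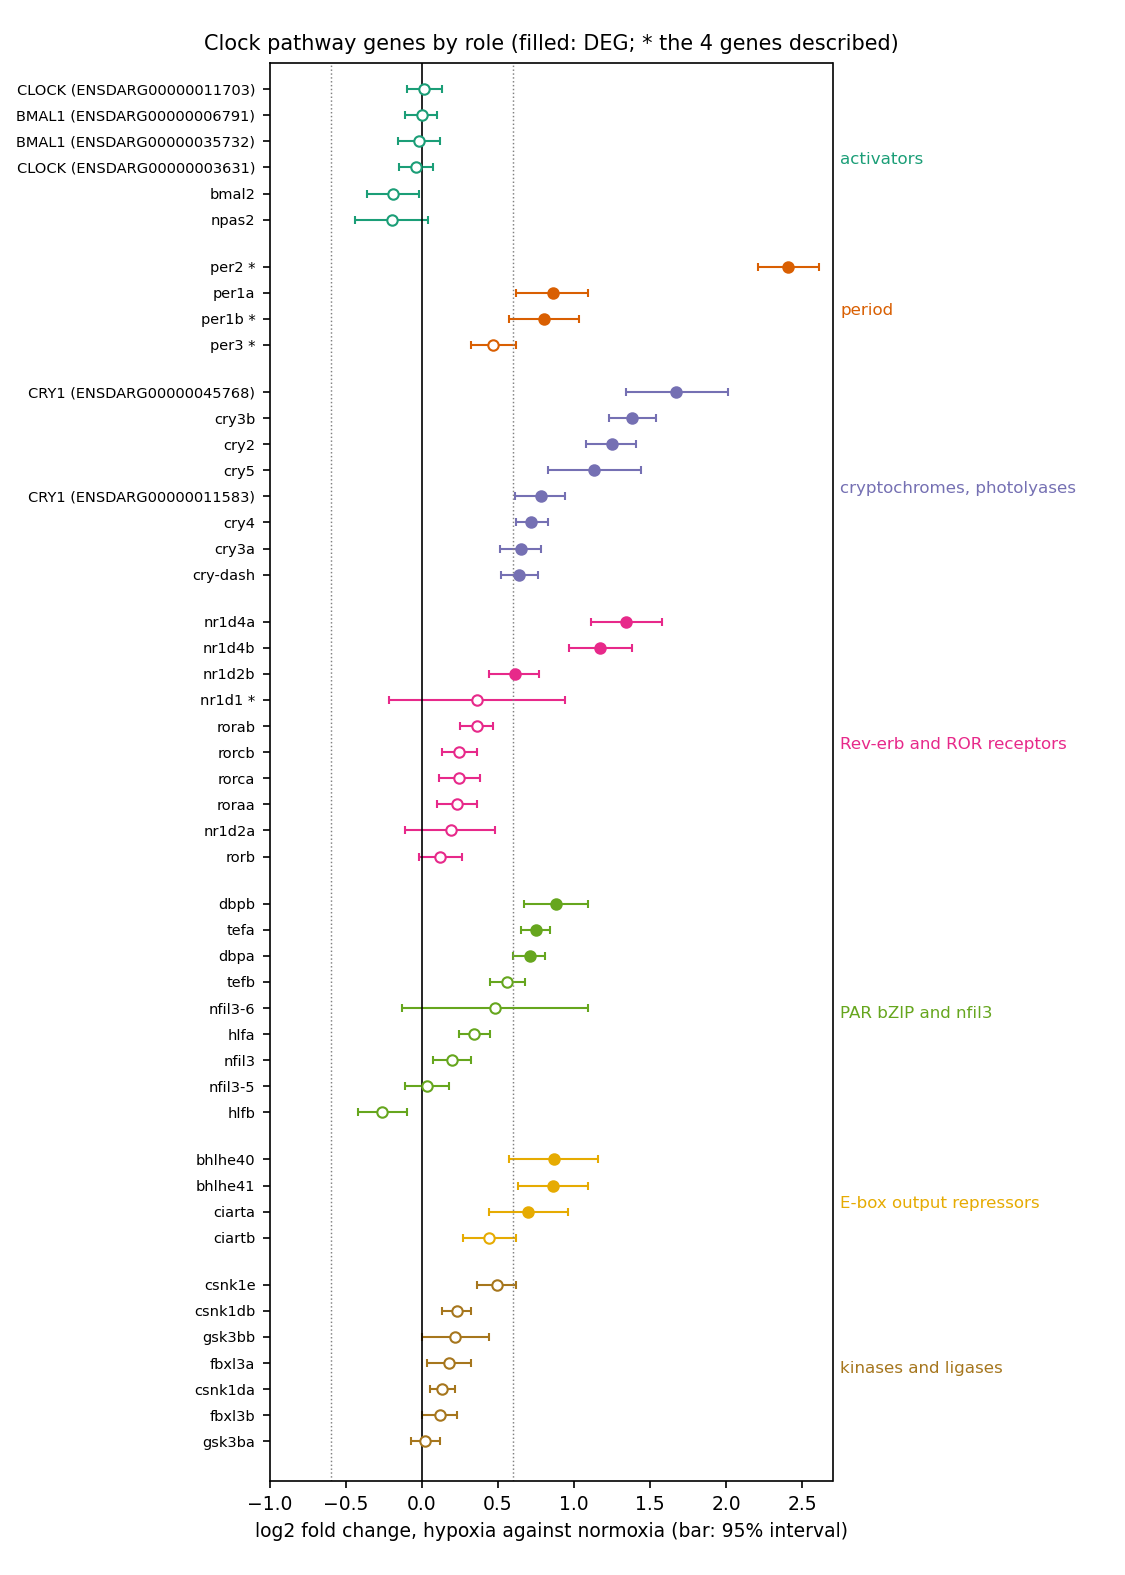
Log2 fold change in hypoxia against normoxia (x axis, with 95% intervals) of the 48 tested clock genes, grouped by role. Filled points are DEGs, dotted lines mark 0.6 and -0.6, and asterisks mark per1b, per2, per3 and nr1d1. The 6 activators lie between -0.20 and 0.01, all 8 cryptochromes and photolyases are filled, and nr1d1 has a wide interval, from -0.22 to 0.94.

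The activators of the loop did not pass the test with TMM scaling, all 7 libraries and the main filter on low counts. The list held the genes annotated CLOCK (2 genes), BMAL1 (2 genes), npas2, which encodes a Clock relative, and bmal2. None of the 6 had an adjusted p under 0.05 (edgeR), where 24.6% of all tested genes were higher and 25.1% were lower. Log2 fold changes of the 6 ran from -0.20 (npas2) to 0.01. The nearest to the threshold was bmal2, at 20.1 ± 1.97 (normoxia, SD, n = 4) and 17.7 ± 0.519 CPM (hypoxia, n = 3). Its log2 difference was -0.19 (adjusted p = 0.056, edgeR). Without normoxia replicate 3 it was -0.25 (adjusted p = 0.015), and with at least 10 counts asked of every library the adjusted p was 0.045. Scaled by library size alone, 3 of the 6 passed as lower, namely bmal2 (-0.29, adjusted p = 0.0083), npas2 (-0.30, adjusted p = 0.038) and CLOCK (ENSDARG00000003631; -0.14, adjusted p = 0.031). For the 2 CLOCK and the 2 BMAL1 genes the 95% intervals with TMM scaling stayed between -0.16 and 0.13. The sign of 1 CLOCK and both BMAL1 genes, all within 0.02 of 0, changed under some alternative settings.

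The period, cryptochrome and photolyase genes rose, with 4 of 4 and 8 of 8 past the adjusted p, against 24.6% of tested genes. Up-regulated DEGs were 3.07% of all tested genes. The remaining period gene, per1a (ENSDARG00000056885), was at 22.9, 27.0, 31.8 and 33.7 CPM in normoxia and at 50.4, 51.2 and 54.9 CPM in hypoxia. Its log2 rise of 0.86 (SE 0.11, adjusted p = 0.00016, edgeR) was close to the 0.80 of its paralog per1b. All 4 period genes thus passed the adjusted p, and 3 were DEGs. Among cryptochromes and photolyases 8 of 8 were up-regulated DEGs. Some cryptochromes are partners of Per proteins in repression, and photolyases of the same family repair ultraviolet damage with the energy of light. Which of the listed genes act as repressors was not tested. One gene annotated CRY1 (ENSDARG00000045768) averaged 29.6 ± 7.57 in normoxia and 94.5 ± 5.86 CPM in hypoxia. That is a log2 rise of 1.67 (SE 0.15, adjusted p = 2.7e-05, edgeR). The other CRY1 gene (ENSDARG00000011583) rose by 0.78 on the log2 scale. The cry3b gene rose by 1.38, cry2 by 1.25, cry4 by 0.72 and cry3a by 0.65, or by 0.59, under the threshold, without hypoxia replicate 3. Of the photolyase branch, cry5, the 6-4 photolyase, rose from 2.42 ± 0.288 to 5.31 ± 1.04 CPM (log2 fold change 1.13), and cry-dash by 0.64. The names cry1a and cry1b could not be assigned to the 2 CRY1 genes.

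Of the 10 Rev-erb and ROR receptor genes 7 passed the adjusted p, all higher in hypoxia, against 24.6% of tested genes. Up-regulated DEGs were 3 of the 10, against 3.07% of tested genes. Scaled by library size alone, 5 passed, without roraa and rorca. The nr1d4a and nr1d4b genes, further members of the Rev-erb group, were DEGs with log2 fold changes of 1.34 (adjusted p = 1.5e-05, edgeR) and 1.17 (adjusted p = 1.3e-05). In nr1d4a the level was 2.78 to 3.59 CPM in normoxia and 7.37 to 9.13 CPM in hypoxia. The nr1d2b gene rose by 0.61, just past the threshold, and by 0.56 without normoxia replicate 1, normoxia replicate 2 or hypoxia replicate 3. The nr1d2a gene did not pass the test, at 0.19 (adjusted p = 0.27), and was at 0.07 without normoxia replicate 1 and at 0.28 without normoxia replicate 3. Like nr1d1, nr1d2a was at its 2 lowest normoxia levels in replicates 1 and 2, at 93.2 and 112 CPM, and at 147 and 140 CPM in replicates 3 and 4, while hypoxia libraries had 127, 143 and 150 CPM. Differences in response between nr1d1 and its paralogs were not tested. The ROR genes encode activators that bind the same elements as Rev-erb. Of these 4 of 5 passed the adjusted p, at log2 fold changes of 0.23 to 0.36, and the fifth, rorb, was at 0.12.

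The output factors of the clock moved in part. Of 9 tested genes 6 were higher and 1 was lower by the adjusted p, against 24.6% and 25.1% of all tested genes. Up-regulated DEGs were 3 of the 9, against 3.07% of all tested genes. The PAR bZIP factors bind D-box elements and carry rhythm from the core loop to other genes. Among these dbpb (0.88), tefa (0.75) and dbpa (0.71) were DEGs. The tefb gene, at a log2 fold change of 0.56, and hlfa, at 0.34, passed the adjusted p only. With TMM scaling, all 7 libraries and the main filter on low counts, 1 clock gene was lower in hypoxia by the adjusted p. This was hlfb, from 9.02 ± 0.477 to 7.53 ± 0.395 CPM (log2 fold change -0.26, adjusted p = 0.012, edgeR). The nfil3 family encodes repressors that compete for D-boxes. Of its 3 tested genes nfil3 rose by 0.20 (adjusted p = 0.013, or 0.069 without hypoxia replicate 2), and nfil3-5 and nfil3-6 did not pass. Like nr1d1, nfil3-6 spread widely in normoxia, at 5.57, 8.33, 14.3 and 15.3 CPM, against 13.1 to 17.7 CPM in hypoxia (log2 fold change 0.48, adjusted p = 0.17). It was at 0.27 without normoxia replicate 1 and at 0.70 without normoxia replicate 4 (adjusted p = 0.29 and 0.056).

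Repressors of E-box genes rose as a group, with 4 of 4 past the adjusted p and 3 DEGs. Of all tested genes 24.6% were higher by the adjusted p and 3.07% were up-regulated DEGs. The bhlhe40 gene, which encodes the E-box repressor Dec1, was at 86.6, 89.4, 122 and 132 CPM in normoxia and at 180, 198 and 210 CPM in hypoxia (log2 fold change 0.87, adjusted p = 0.00043, edgeR). The related bhlhe41 gene rose by 0.86. The ciarta gene, which encodes the Clock-Bmal repressor Chrono, rose by 0.70 and ciartb by 0.44. Among 7 genes for enzymes that modify Per and Cry proteins 4 passed the adjusted p, all higher in hypoxia, against the same 24.6%. None of them was a DEG. The largest shift among them was that of csnk1e, a casein kinase 1 gene whose product phosphorylates Per proteins, at 0.49 (adjusted p = 0.00013). Of the 4, fbxl3a was near the threshold (log2 fold change 0.18, adjusted p = 0.04). Its adjusted p was 0.07 to 0.15 without any one of normoxia replicates 1 to 3 or hypoxia replicates 1 and 3. That of csnk1da (0.13, adjusted p = 0.015) was 0.055 without hypoxia replicate 3. Scaled by library size alone, 2 of the 7 passed.

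**Figure D4:**
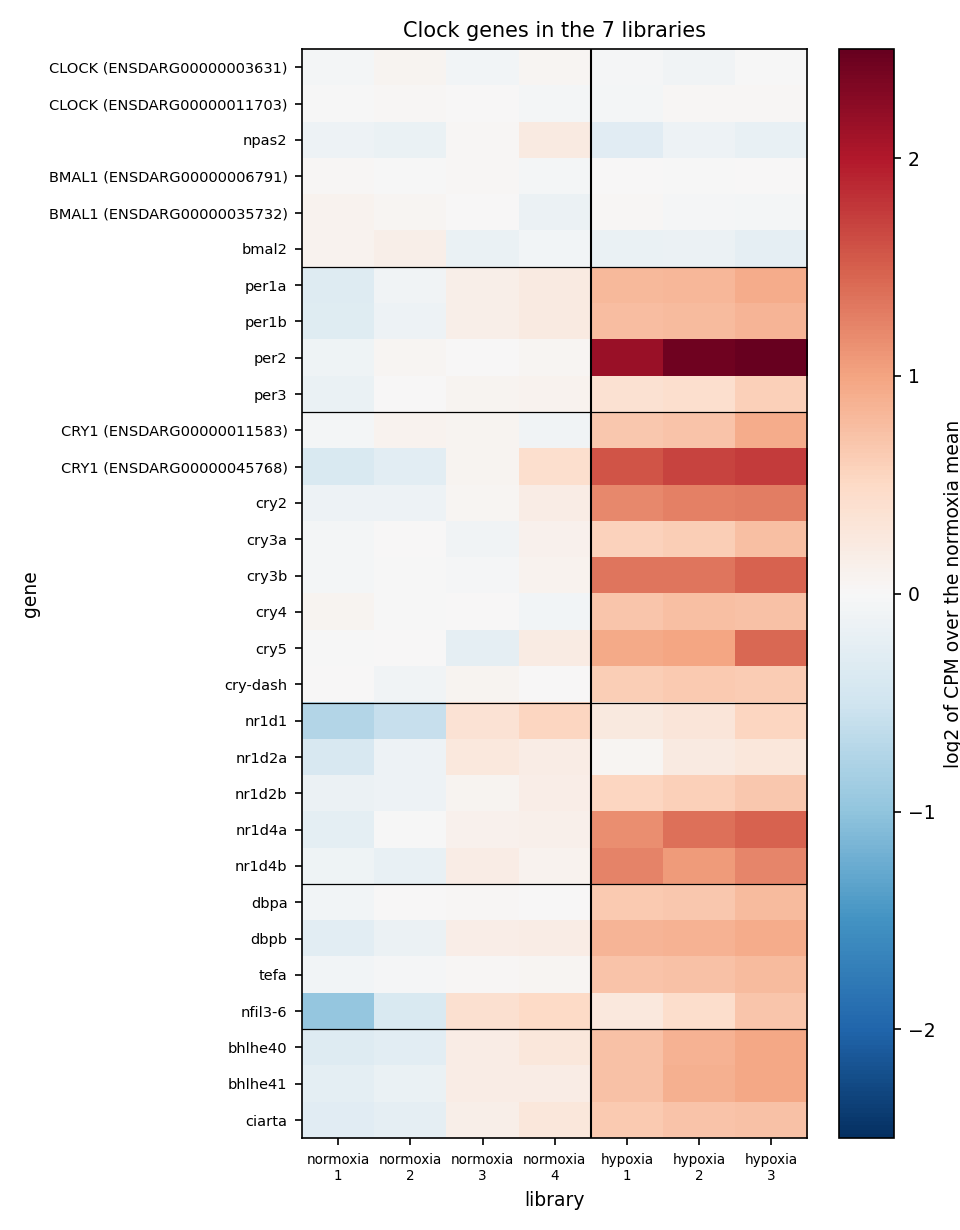
Log2 of CPM over the normoxia mean (color) for the clock DEGs, the activators, per3, nr1d1, nr1d2a and nfil3-6 (rows) in the 7 libraries (columns). A vertical line parts normoxia from hypoxia and horizontal lines part the roles. The per2 row is the darkest in hypoxia, the activator rows stay pale throughout, and nr1d1 and nfil3-6 are blue in normoxia replicates 1 and 2 and red in replicates 3 and 4.

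Genes with the profile most like each clock gene were found by the root mean square (RMS) difference of mean-centred log2 CPM over the 7 libraries, among 19881 other genes with at least 1 CPM on average. For per1b the nearest was its paralog per1a (0.036), followed by the genes annotated UBTD1 (0.041) and dbpb (0.045). For per3 they were KSR2 (0.018), which encodes a scaffold of the MAP kinase cascade, si:ch211-160f23.7 (0.021) and CAMK1G (0.024), which encodes a calcium/calmodulin-dependent kinase. The RMS difference also takes in the size of a change, and by log2 fold change per2 was at place 11 of 23716 tested genes. The per2 gene had no neighbour as close. Its nearest were ponzr3 (0.228), si:dkey-23o4.6 (0.233) and P4HA1 (0.244), the last of which encodes a collagen prolyl 4-hydroxylase subunit and had a log2 fold change of 2.39. For nr1d1 the nearest were nfil3-6 (0.137), ARRDC3 (0.142), which encodes an arrestin-domain protein, and si:ch211-162i8.7 (0.181). The 4 clock genes were farther from each other, with an RMS difference of 0.199 for per1b and per3 and of 1.04 for per2 and nr1d1. These values describe the 7 libraries and carry no test.

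Other lists were read beside the clock genes, against the 24.6% of all tested genes that were higher and the 25.1% that were lower by the adjusted p. Up-regulated DEGs were 3.07% and down-regulated DEGs 7.45% of all tested genes, so lists this short could hold 0 DEGs at those shares. Of the 8 bHLH-PAS relatives in the HIF system 4 were higher and 2 were lower by the adjusted p, and 0 were DEGs. The 2 genes annotated EPAS1, the HIF2 alpha subunit, were the lower ones, at log2 fold changes of -0.53 and -0.28. The hif1ab gene was at 0.02 (adjusted p = 0.67, edgeR). Of 8 listed glucocorticoid-responsive genes, a group to which mammalian Per1 is also assigned, 7 were tested. Of the 7, 2 were higher, 2 were lower and 0 were DEGs, shares near those of all genes. Of 10 listed immediate early genes, which respond within minutes to stimulation, 8 were tested. Of the 8, 3 were higher, 1 was lower and 0 were DEGs, or 4 of the 8 in either direction. The aanat2 gene encodes an enzyme of melatonin synthesis in the pineal gland and is a known clock output. Its level was 4.46 ± 0.478 CPM in normoxia and 4.54 ± 0.247 CPM in hypoxia (log2 fold change 0.03, adjusted p = 0.85, edgeR).

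Markers of cell types moved between the same groups. Of all tested genes 24.6% were higher and 25.1% were lower by the adjusted p, and 7.45% were down-regulated DEGs. Of 7 listed brain neuron markers 5 were tested. All 5 were higher in hypoxia by the adjusted p, with log2 fold changes of 0.32 to 0.44. Their summed level was 1400 to 1500 CPM in normoxia and 1770 to 2020 CPM in hypoxia. All 6 liver markers were down-regulated DEGs, with a summed level of 1560 to 2200 CPM in normoxia and 437 to 1130 CPM in hypoxia. Of 4 tested skeletal muscle markers, from 6 listed, 3 were higher, and of 6 skin and gut markers 4 were lower. The gut markers fabp2 (-1.01), apoa1a (-1.29) and vil1 (-0.80) were down-regulated DEGs. Of the skin markers krt4 was lower by less (-0.24, not a DEG), and krt5 and cyt1 did not pass. Of 10 listed pineal and photoreceptor markers only 4 were matched and tested. Of these 4, 1, crx, was higher, at 0.40, a share near that of all tested genes. No marker tested in these lists was under 1 CPM on average. The part of these shifts in the clock gene results was not tested. In whole larvae fewer cells of a type and less RNA per cell cannot be told apart. With one time point, a change in the level of a rhythmic transcript and a shift of its phase cannot be told apart either.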

How the data were processed

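The 7 poly(A) RNA-seq libraries, each from 30 pooled larvae, were grouped by the sample labels. Per the submitters' notes, Trimmomatic 0.39 was used for trimming, STAR 2.7.10 for alignment (GRCz11, Ensembl release 113) and featureCounts 2.0.7 for counting. The authors deposited raw counts per gene, without normalization. Strand and multi-mapping settings are not given in the sources used here. The lowest total of a gene is 10 counts. All 7 columns were used.

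Groups were compared by edgeR 4.0.16 under R 4.3.3. The steps were filterByExpr, TMM scaling, glmQLFit and glmQLFTest, and p-values were adjusted by Benjamini-Hochberg (BH) over 23716 genes. The standard error (SE) is the absolute log2 fold change over the square root of F. Log2 CPM used a prior count of 2. The study's methods name DESeq2, and DESeq2 1.42.0 served as an alternative. The functions were tested on simulated counts. Replicates of a group differed by more than sampling noise (chi-square per degree of freedom 7.04 to 20.9), and each was counted once.

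Symbols were taken from a table pairing 23250 of 25049 identifiers with names, in part human ones; per1a, nr1d2b and similar names were assigned as the only copy left. Levels were not compared between genes, as transcript lengths were not used here, and no sequences were analysed here. The members and lists were chosen with earlier results of these data known. Named genes are the 4 clock genes, clock genes that are DEGs, their paralogs, the activators, the 3 nearest profiles, and genes a count turns on. The alternatives were another test, scaling factors, count filters and thresholds, a replicate block, and leaving out each library.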

Additional observations from a re-analysis of the deposited data

How the results depend on the processing

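Under DESeq2, its size factors in edgeR, upper-quartile factors, library size only and both other count filters, per1b and per2 stayed DEGs, and per3 and nr1d1 stayed without a DEG call. With log2 0.6 inside the test (glmTreat) and with a log2 threshold of 1, which both ask for a larger change, per1b was not called at 0.80 (adjusted p = 0.31 and 0.00017, edgeR). Its adjusted p with any single library dropped was 0.00013 to 0.0016. Under glmTreat and under the log2 threshold of 1, clock genes called up were 7 and 7 in place of 20. DEGs over all genes were 133 and 172 up and 167 and 513 down, in place of 729 and 1766. Scaling by library size alone called 427 genes up, so that 14.7% of DEGs were up-regulated (29.2% with TMM). It moved the median over all tested genes to -0.10 on the log2 scale. No label says whether libraries of equal replicate number were paired. Deviations of same-numbered libraries correlated at 0.190, 0.0520 and 0.0211. Hypoxia replicates 1 and 2 correlated best with normoxia replicates 1 and 2, and hypoxia replicate 3 with normoxia replicate 4. Pairing was not tested further. With the replicate block on replicates 1 to 3, nr1d1 had a log2 fold change of 0.67 (adjusted p = 0.0014, edgeR); the same libraries without the block gave 0.60 (adjusted p = 0.061), and both leave out normoxia replicate 4. There were 2700 DEGs with the block and 2644 without it, 22 and 20 of them clock genes that rose. The block also gave an adjusted p of 0.001 in nfil3-6 (log2 fold change 0.77), 0.01 in nr1d2a (0.28) and 0.025 in bmal2 (-0.20). Near 0, CLOCK (ENSDARG00000011703) turned to -0.09 with library size only and -0.01 with the block, nfil3-5 to -0.06 and gsk3ba to -0.07 with library size only; none of the 5 genes whose sign turned was called.

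Dropping any single library gave log2 fold changes of 0.71 to 0.88 in per1b, 2.30 to 2.52 in per2, 0.40 to 0.52 in per3 and 0.18 to 0.60 in nr1d1. The exact permutation test on log2 CPM then cannot reach 0.05 (smallest p 0.067 or 0.10), with differences of 0.72 to 0.89 in per1b, 2.30 to 2.51 in per2 and 0.40 to 0.52 in per3. The per3/nr1d1 shift ran from -0.18 to 0.17. Clock genes called up numbered 18 to 20, where up-regulated DEGs over all genes numbered 576 to 913. The clock genes that lost the DEG call were nr1d2b and cry3a, and with library size only these and cry-dash. The log2 fold change ran from -0.01 to 0.04 in CLOCK (ENSDARG00000011703), -0.02 to 0.01 and -0.06 to 0.01 in the BMAL1 genes, -0.01 to 0.07 in nfil3-5 and -0.01 to 0.05 in gsk3ba. The same settings were applied to 54 other genes, namely the other tested clock genes, egln3 and the nearest-profile genes. Of 864 values for these, 814 kept sign and DEG call, 33 lost the call, 3 gained it and 14 changed sign. Apart from egln3, genes of the lists outside the clock were not checked in this way unless they were nearest-profile genes. The 4 clock genes had at least 633 counts in every library; the part of depth was not tested.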

Other observations

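The order of libraries within a group was noticed after the values were seen, and is given with no test. In 25 of the 48 tested clock genes (52.1%) normoxia replicates 3 and 4 were both above replicates 1 and 2, as in nr1d1, per1b, CRY1 (ENSDARG00000045768) and bhlhe40. Over all 23716 tested genes this held in 15.9%. Normoxia replicate 4 was the highest normoxia library in 28 clock genes (58.3%) and in 24.6% of all tested genes, and normoxia replicate 1 was the lowest in 24 clock genes and in 28.8% of all tested genes. Hypoxia replicate 3 was the highest hypoxia library in 37 of the 48 clock genes (77.1%), against 36.1% of all tested genes, and the 6 liver markers were at their lowest in that library. The hour at which each pool was collected and the batch of each library are not given in the sources used here, and their part in these values was not tested.

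No normoxia library stood apart from the other 3 by Dixon's criterion in any of the 48 clock genes, where chance gives about 2.40. In nr1d1 and nfil3-6 the normoxia libraries lay in pairs, which this criterion does not detect.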
